A study of Homo sapiens with 2 samples.

Results

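The genes described here are 37 genes of glycolysis and of the response to low oxygen, out of 62704 genes counted in human cerebral organoids by split-seq. The genes were taken by name from a list ordered by role, and all 37 were found in both libraries. They comprised 2 glucose transporters, 14 glycolytic enzymes, 4 regulators of glycolytic flux, 2 subunits of lactate dehydrogenase, 3 genes of oxygen sensing and 12 targets of the hypoxia response. Split-seq labels the RNA of fixed cells in successive rounds of wells, so that a combination of wells stands for 1 cell.

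All organoids were grown from H9, a human embryonic stem cell line. The first library held single cells from control cerebral organoids (CO) of days 45, 55 and 70, from organoids dissociated at day 45 and left to reaggregate (DISS) sampled at days 48, 55 and 70, and from organoids constrained in 3% agarose from day 13 (CONS) sampled at day 55. The second library held nuclei of a control experiment on organoids of day 45, whole or dissociated, and its treatment label reads Control/Dissociated/Embed. Several organoids were pooled in each library, and all come from 1 line. Every barcode of a library carries the same sample name, so no barcode could be assigned to a treatment, day or organoid. Each library was therefore 1 sample, no condition was compared, and no p-value is given. Intervals are 95% exact intervals that cover counting error only.

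Glycolysis splits glucose into pyruvate and yields ATP without oxygen. When oxygen is low, the hydroxylases EGLN1 and EGLN3 no longer mark the transcription factor subunit HIF1A for degradation, and HIF1A then raises glucose transporters, glycolytic enzymes, the pyruvate dehydrogenase kinases that keep pyruvate out of mitochondria, and signals such as VEGFA. HIF1A itself is controlled mainly at the level of the protein. In cerebral organoids, which have no blood supply, and in radial glia of the developing cortex, glycolytic genes are commonly expressed.

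A barcode was kept if it held over 500 genes and over 1000 transcripts, of which no more than 20% were mitochondrial. This left 20178 of 1303455 barcodes in the cells library and 14228 of 197446 in the nuclei library, with medians of 2615 and 3890 transcripts. In cells, 407 barcodes of more than 50000 transcripts held 28.5% of the kept transcripts. The median mitochondrial share was 2.45% in cells and 0.0863% in nuclei. The libraries shared 70784 well combinations, of which 99 were kept in both, since the same well codes served in both. The label of brain organoid was checked against marker genes, and all 8 radial glia markers and all 10 excitatory neuron markers reached 100 counts in both libraries. Free RNA was judged from barcodes of few transcripts, and was not separated from cells of low depth. The paper removed contaminating RNA from cells by computation and reported no need to do so for nuclei. Barcodes of 10 to 100 transcripts, taken as background, held 2973 member transcripts per 1000000 transcripts (CPM, the unit of all levels below) against 3006 in kept cells, and 2227 against 2387 in kept nuclei. A low level in a cell type may therefore contain free RNA, the part of which was not tested.

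Promoter sequences are shown first for the members with the highest and the lowest fold between groups of barcodes, as given below. HIF binds a short core motif whose common form is ACGTG, which was searched on both strands (ACGTG or CACGT) in the 250 bases upstream of RefSeq transcript starts (GRCh38.p14). The palindrome CACGTG, an E-box that basic helix-loop-helix factors bind, contains the motif on both strands and counts as 2 matches. The first 5 sequences belong to the members with the highest fold in the cluster described next, ranked by the lower of the 2 libraries. Where a gene had several windows, the one with most matches is shown. Capitals mark the motif.
PDK1: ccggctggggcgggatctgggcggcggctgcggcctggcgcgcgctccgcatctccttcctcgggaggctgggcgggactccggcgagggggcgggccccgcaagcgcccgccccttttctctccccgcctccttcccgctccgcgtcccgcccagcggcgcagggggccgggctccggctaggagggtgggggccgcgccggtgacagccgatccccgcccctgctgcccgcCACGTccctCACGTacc
FAM162A: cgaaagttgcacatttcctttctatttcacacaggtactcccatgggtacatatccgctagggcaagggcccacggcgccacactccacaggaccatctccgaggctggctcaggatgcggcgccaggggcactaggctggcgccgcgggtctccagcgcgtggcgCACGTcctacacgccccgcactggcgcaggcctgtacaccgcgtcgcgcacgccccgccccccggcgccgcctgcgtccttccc
P4HA1: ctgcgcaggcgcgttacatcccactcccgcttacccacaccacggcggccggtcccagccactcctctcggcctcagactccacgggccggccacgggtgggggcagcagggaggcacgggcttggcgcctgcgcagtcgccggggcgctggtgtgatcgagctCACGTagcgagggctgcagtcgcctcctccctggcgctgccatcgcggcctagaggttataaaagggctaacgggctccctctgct
HK2: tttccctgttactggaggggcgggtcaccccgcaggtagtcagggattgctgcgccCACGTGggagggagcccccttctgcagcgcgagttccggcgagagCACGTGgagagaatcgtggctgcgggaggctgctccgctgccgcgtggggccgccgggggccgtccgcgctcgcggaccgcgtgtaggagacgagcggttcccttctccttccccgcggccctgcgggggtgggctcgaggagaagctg
BNIP3: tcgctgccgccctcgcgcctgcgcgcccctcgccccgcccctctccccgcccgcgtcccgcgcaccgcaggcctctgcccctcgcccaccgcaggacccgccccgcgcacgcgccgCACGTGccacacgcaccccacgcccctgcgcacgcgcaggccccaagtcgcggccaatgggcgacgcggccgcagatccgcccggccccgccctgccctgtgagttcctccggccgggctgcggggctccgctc
These windows lie at chr2:172555840-172556089 (plus strand, PDK1), chr3:122383932-122384181 (plus strand, FAM162A), chr10:73096867-73097116 (minus strand, P4HA1), chr2:74834920-74835169 (plus strand, HK2) and chr10:131981924-131982173 (minus strand, BNIP3). PDK1 held 2 separate matches, FAM162A and P4HA1 held 1 each, HK2 held 4 in a pair of E-boxes, and BNIP3 held 2 in an E-box. PDK1 and HK2 had 2 windows each, and 1 of those of PDK1 and both of those of HK2 held a match.

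The next 3 sequences belong to the members with the lowest fold, ranked by the higher of the 2 libraries. These windows held neither ACGTG nor CACGT, and other forms of the core motif were not searched. Ranked by the lower of the 2, GAPDH would replace EGLN3, and its window held 2 matches.
PFKL: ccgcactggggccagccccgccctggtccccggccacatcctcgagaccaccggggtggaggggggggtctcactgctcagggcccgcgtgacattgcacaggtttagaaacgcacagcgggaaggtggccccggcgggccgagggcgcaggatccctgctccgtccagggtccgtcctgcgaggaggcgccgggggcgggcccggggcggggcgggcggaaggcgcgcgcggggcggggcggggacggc
EGLN3: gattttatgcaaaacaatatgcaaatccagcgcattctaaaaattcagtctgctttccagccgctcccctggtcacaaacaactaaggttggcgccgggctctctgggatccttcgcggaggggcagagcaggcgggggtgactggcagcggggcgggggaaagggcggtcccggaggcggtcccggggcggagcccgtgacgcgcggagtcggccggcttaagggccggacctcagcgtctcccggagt
LDHB: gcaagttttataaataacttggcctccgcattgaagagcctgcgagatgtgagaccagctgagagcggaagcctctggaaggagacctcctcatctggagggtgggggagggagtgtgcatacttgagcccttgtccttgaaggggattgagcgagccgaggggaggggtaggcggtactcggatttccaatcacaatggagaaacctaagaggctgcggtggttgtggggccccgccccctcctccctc
They lie at chr21:44299803-44300052 (plus strand, PFKL), chr14:33951075-33951324 (minus strand, EGLN3) and chr12:21657843-21658092 (minus strand, LDHB). Of the 33 members with a window, 20 (60.6%) held the motif in at least 1 window, against 5935 of 27305 genes (21.7%) and 6501 of all 35116 windows (18.5%). SLC2A3, BNIP3L, VEGFA and NDRG1 had no entry. Among members at least 2-fold higher in the cluster in both libraries, 14 of 18 held the motif (77.8%), and among the other members 6 of 15 did. KDM3A, HK1, PGAM1 and P4HA2 were in the first group without a match, and LDHA, outside it, held 5. The windows are rich in G and C, from 58.0% in LDHB to 81.6% in BNIP3, and a match describes letters and not binding. The list was made of genes of glycolysis and the hypoxia response, and the split used the levels that chose the cluster. The shares with the motif therefore describe the list and test nothing.

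The members were first read in the cluster of each library in which they were highest. Clusters were built on variable genes from which the 37 members and an extended list of related genes had been left out, and the cluster with the highest median fold of the members against all other kept barcodes was taken. Because that choice used the members' levels, the counts below describe the cluster and test nothing. In cells it held 1100 barcodes (5.45%) from 43 of 48 first-round wells, and in nuclei 737 barcodes (5.18%) from all 12 wells. The next highest cluster had a median fold of 1.25 in cells and 1.64 in nuclei, against 2.18 and 2.40 in the cluster taken. In cells, 23 of 37 members were at least 2-fold higher there, against 4.46% of all 24574 genes with at least 100 counts, and 0 were at least 2-fold lower, against 11.7%. In nuclei, 23 of the 36 members with at least 100 counts were at least 2-fold higher, against 9.97% of 17309 genes, and 0 were at least 2-fold lower, against 16.7%. The median fold over all genes was 1.02 in cells and 1.03 in nuclei. ADM, with 96 counts, did not reach the minimum in nuclei. The lists of the libraries shared 21 members, which was 91.3% of each. The call depended on the clustering. With a coarser Leiden resolution of 0.5, 1010 of these cells lay in a cluster of 2383 barcodes in which 0 members passed 2-fold, against 1.14% of genes. The cluster of nuclei with the highest median fold then had 5 of 36 members past 2-fold, against 8.27%. It was a different group of 164 nuclei that shared 0 barcodes with the one described, and the nuclei described were not followed at this resolution. At more than 5000 transcripts the nuclei cluster also shared 0 barcodes, and 9 of 35 members passed, against 7.62%.

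**Figure D1:**
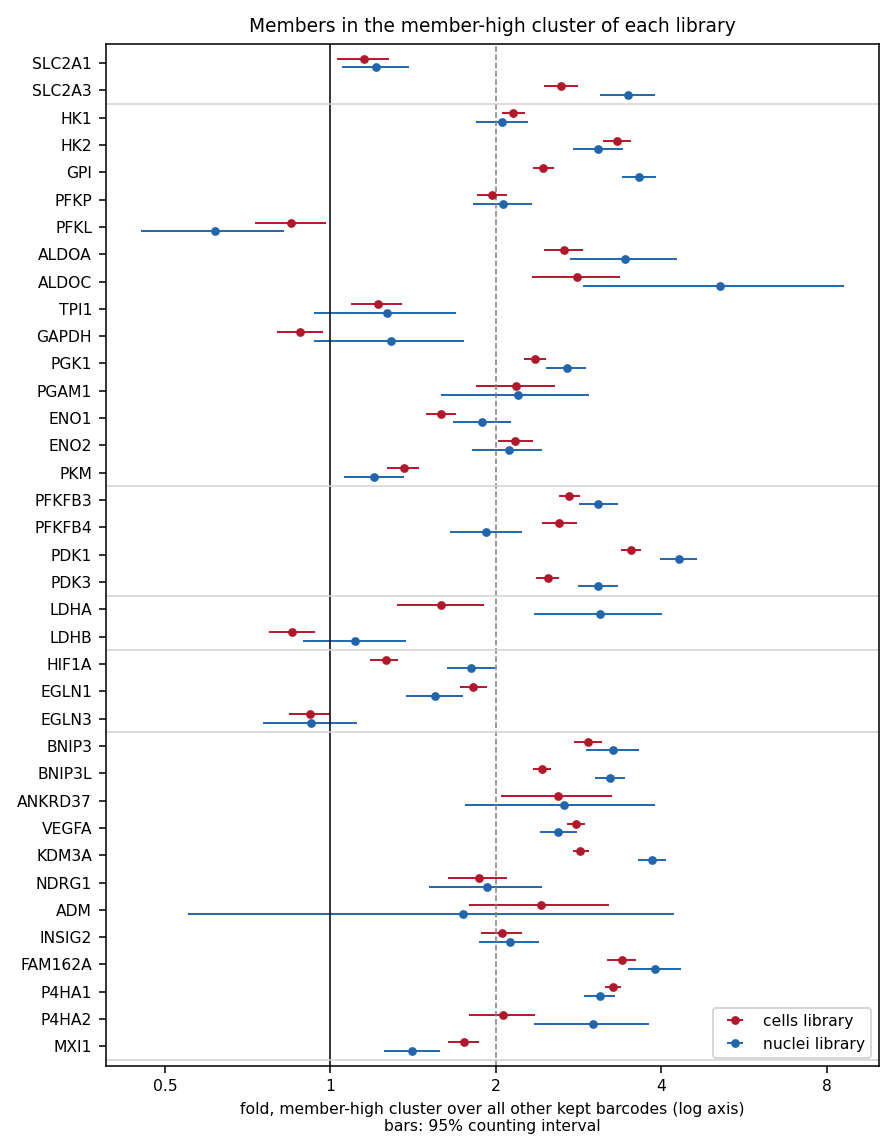
Fold of each of the 37 members in the member-high cluster over all other kept barcodes (horizontal log axis), in cells (red) and nuclei (blue), with 95% counting intervals as bars, grey lines between roles and a dashed line at 2-fold. PDK1 lies farthest right in cells at 3.52 and ALDOC in nuclei at 5.12, while PFKL and EGLN3 lie left of 1 in both libraries.

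The cluster had no name from the marker lists. Its 10 leading genes in cells were HIF1A-AS3, LINC02649, ENSG00000257759, ADARB2, ADAM20, KCTD16, PDK1, GPC5, FAM162A and HK2, and 3 of them, ENSG00000257759, LINC02649 and PDK1, were also among the leading 10 in nuclei. HIF1A-AS3, a transcript antisense to HIF1A, was at 188 CPM in the cells of the cluster against 44.7 elsewhere, and at 177 against 20.2 in nuclei. Whether the counting used strand is not given in the sources used here, so HIF1A and HIF1A-AS3 reads may not be fully separated. The leading 10 in nuclei were LINC02649, HSP90AA1, HSPH1, ENSG00000257759, CHORDC1, NSG2, USPL1, PDK1, SNAP25 and UTP23. The heat shock genes HSP90AA1, HSPH1 and CHORDC1 were not among the leading 10 in cells. HSP90AA1 and CHORDC1 were also among the leading 10 of the next highest cluster of nuclei, which is part of the radial glia-like nuclei. A list of 9 stress genes had a median fold of 1.00 in cells, with 0 at least 2-fold higher and 2 at least 2-fold lower (lowest 0.215), and 1.23 in nuclei, with 1 higher (3.23) and 1 lower (0.116). Of the 8 radial glia markers, 7 were at 0.5 of the level elsewhere or less in both libraries, as were all 6 markers of dividing cells and 5 of 6 choroid plexus markers. Of 10 excitatory neuron markers, 0 were at least 2-fold higher and 2 at least 2-fold lower in cells (median 1.28, range 0.374 to 1.97), and 3 were higher and 1 lower in nuclei (median 1.80, range 0.307 to 2.73). In cells, 2 of 3 microglia markers were at least 2-fold higher, although 1 of the 3 reached 100 counts in the library, and in nuclei 0 were. The 6 inhibitory neuron markers, of which 3 reached 100 counts, had a median of 1.66 in cells, with 2 at least 2-fold higher and the highest at 9.72, and 0.771 in nuclei, with 1 at 5.28. The 6 Cajal-Retzius markers had a median of 0.492 in cells and 1.41 in nuclei, with 1 at least 2-fold higher in each (2.32 and 3.65). The median mitochondrial share of the cluster was 1.12% in cells and 0.226% in nuclei, and its median depth was 4768.5 and 2267 transcripts. The part of these differences in the members' levels was not tested.

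Glucose transport differed between its members. SLC2A3, the high-affinity neuronal glucose transporter, stood at 122 CPM in the cluster and 46.6 in all other cells, a 2.63-fold difference (2.45 to 2.82), and at 152 against 43.8 in nuclei. SLC2A1, the transporter of the blood-brain barrier, was at 51.4 against 44.6 in cells and 91.9 against 76.0 in nuclei. SLC2A1 was within 1.21-fold of the other barcodes in both libraries, and within the wells described below it was higher in 5 of 15 in cells, with well medians of 34.4 in the cluster against 44.1, so that its direction in cells turned.

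Of the 14 glycolytic enzymes, 8 were at least 2-fold higher in cells, against 4.46% of all genes, and 9 in nuclei, against 9.97%. HK2, the inducible hexokinase that traps glucose in the cell, was at 179 against 54.0 CPM in cells and 183 against 59.6 in nuclei. GPI, which converts glucose 6-phosphate to fructose 6-phosphate, was at 358 against 147 and at 383 against 105. PGK1, which makes the first ATP of the pathway, was at 283 against 120 and at 283 against 105. HK1 was 2.15-fold higher in cells and 2.05-fold in nuclei, ALDOA 2.66-fold and 3.43-fold, PGAM1 2.18-fold and 2.19-fold, and ENO2 2.17-fold and 2.11-fold. These 7 enzymes and ALDOC passed 2-fold in both libraries. ALDOC, the brain form of aldolase, had the highest fold of any member in nuclei, but from 17 counts (5.12-fold, 2.88 to 8.60). PFKP, the platelet form of phosphofructokinase, was 1.97-fold higher in cells and 2.06-fold in nuclei. GAPDH, TPI1, PKM and ENO1 were below 2-fold in both libraries. GAPDH was at 65.6 against 74.4 CPM in cells and 19.9 against 15.4 in nuclei, so that its direction differed between the libraries and its fold in nuclei, with a lower bound of 0.934, did not differ from 1 beyond counting error. Within wells GAPDH in cells was higher in 9 of 15, with well medians of 60.6 against 47.1, the opposite of its pooled direction. PKM was 1.36-fold and 1.20-fold higher, and ENO1 1.59-fold and 1.89-fold. TPI1 was 1.22-fold higher in cells (1.09 to 1.35), and its 1.27-fold in nuclei (0.934 to 1.69) did not differ from 1 beyond counting error. PFKL, the liver form of phosphofructokinase, was lower in both libraries, at 0.848 (0.730 to 0.980) and 0.617 (0.452 to 0.823) of the other barcodes. PGAM1 counts are uncertain, because PGAM1P5, a copy by its name, had 7373 counts in cells against 1789 of PGAM1. In nuclei it had 2034 against 711. Whether reads of PGAM1 were counted for PGAM1P5 was not tested.

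All 4 flux regulators passed 2-fold in cells, against 4.46% of all genes. PDK1, a kinase that switches off pyruvate dehydrogenase, was at 369 against 105 CPM in cells (3.52-fold, 3.38 to 3.67) and at 333 against 77.4 in nuclei (4.30-fold, 3.97 to 4.64). The 8 sub-libraries of cells gave folds of 3.04 to 4.16, and the 2 of nuclei 4.11 and 4.45. Its relative PDK3 was 2.49-fold and 3.07-fold higher. PFKFB3, which makes the activator of phosphofructokinase, was 2.72-fold and 3.07-fold higher, and PFKFB4 2.61-fold and 1.92-fold. The 2 lactate dehydrogenase genes differed. LDHA, the subunit of the muscle form and a HIF target, was at 18.7 against 11.8 CPM in cells and 28.5 against 9.21 in nuclei, and LDHB, the subunit of the heart form, at 63.3 against 74.4 and 41.2 against 37.1. Over the sub-libraries of cells the fold of LDHA ran from 0.359 to 2.35.

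None of the 3 genes of oxygen sensing passed 2-fold. HIF1A was at 158 against 126 CPM in cells (1.26-fold) and 193 against 107 in nuclei (1.80-fold). EGLN1 was 1.82-fold and 1.55-fold higher. EGLN3, itself a known HIF target, was at 0.919 (0.842 to 1.00) and 0.922 (0.755 to 1.12) of the other barcodes.

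Of the 12 hypoxia response genes, 10 passed in cells, against 4.46% of all genes, and 9 of the 11 with enough counts passed in nuclei, against 9.97%. FAM162A, a mitochondrial protein induced by hypoxia, was at 176 against 52.0 CPM in cells and 164 against 42.1 in nuclei. P4HA1, a subunit of the prolyl hydroxylase that modifies collagen, was at 593 against 181 and 459 against 149. KDM3A, a histone demethylase, was at 578 against 203 and 589 against 153. BNIP3 and BNIP3L, receptors for the removal of mitochondria, were 2.94-fold and 2.43-fold higher in cells and 3.27-fold and 3.23-fold in nuclei. VEGFA, the growth signal for blood vessels, was at 431 against 154 and 328 against 126. INSIG2, an inhibitor of sterol synthesis, was 2.05-fold and 2.12-fold higher, P4HA2 2.06-fold and 3.01-fold, and ANKRD37 2.59-fold and 2.66-fold, the last from 84 and 29 counts. ADM, a peptide hormone, was at 7.75 against 3.20 CPM in cells from 54 counts, and had 5 counts in the nuclei of the cluster. Over the sub-libraries of cells the fold ran from 0.556 to 4.15 for ANKRD37 and from 0.323 to 4.46 for ADM. NDRG1 (1.86-fold and 1.93-fold) was below 2-fold in both, and so was MXI1, an antagonist of MYC, at 155 against 88.7 and 134 against 95.5.

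Of an extended list of related genes, 8 of 53 with enough counts were at least 2-fold higher in cells and 6 at least 2-fold lower, against 4.46% and 11.7% of all genes. In nuclei 8 of 48 were higher and 5 lower, against 9.97% and 16.7%. The share of lower genes was thus near that of all genes in cells and below it in nuclei. CA9, a carbonic anhydrase widely used as a marker of hypoxia, led both lists, at 19.4 against 5.81 CPM in cells and 10.9 against 1.22 in nuclei. STC2, DDIT4, PPFIA4, PPP1R3C and HILPDA, 5 further hypoxia-induced genes, were also higher in both libraries. PPP1R3C rested on 43 counts in cells and 9 in nuclei, and CA9 on 24 in nuclei. The median fold of the extended list was 1.17 in cells and 1.39 in nuclei. EPAS1, which encodes the HIF2 alpha subunit, was lower, at 3.30 against 25.7 in cells and 6.33 against 25 in nuclei. SLC2A12, CA12 and ARNT2, a neuronal partner of HIF1A, were lower in both libraries as well.

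The difference was also read within wells that held at least 20 barcodes of the cluster, comparing the cluster with the other barcodes of the same well. In cells, 10 members (HK1, PGK1, ENO1, PFKFB3, PDK1, PDK3, BNIP3, VEGFA, KDM3A and P4HA1) were higher in all 15 such wells, against 0.838% of all genes. PDK1 ranged over these wells from 87.1 through a median of 358 to 553 CPM in the cluster, and from 56.9 through 115 to 234 in the other barcodes. The ranges overlapped for PDK1 and for all other members, so that 0 members had every cluster well above every other value, against 0.0122% of genes. In nuclei, 17 members were higher in all 9 wells, against 5.25% of genes. For 8 of them (PGK1, PFKFB3, PDK1, PDK3, BNIP3L, KDM3A, P4HA1 and P4HA2) the ranges did not overlap, against 1.60%. PDK1 in nuclei ranged from 200 through 346 to 538 in the cluster and from 62.4 through 78.4 to 131 elsewhere. The well with most barcodes of the cluster gave 18.1% of it in cells and 23.3% in nuclei, and without it 22 of 37 members passed 2-fold in cells, against 4.87% of genes, and 26 of 36 in nuclei, against 10.7%.

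Among the other groups of barcodes, the members differed by type. Types were named from marker lists by limits set after the clusters' marker values had been seen. With a median marker fold of at least 2, the 2423 radial glia-like cells (12.0% of kept cells) and 1538 of the 3102 choroid plexus-like cells lost their name, as did 2511 of the 3544 radial glia-like nuclei, while a minimum of 1.5 changed no name. A group led by SV2C, made of 2 clusters of cells without a name (1781 barcodes, led by NRG1, SV2C and ADAMTS19), had the lowest levels. There, 23 of 37 members were at 0.5 of the level of the other barcodes or less, against 15% of all genes, and the median fold of the members was 0.416 beside 0.821 for all genes. VEGFA stood at 31.6 CPM (28.9 to 34.5) in this group against 181 elsewhere. FAM162A was at 12.2 against 62.6 and BNIP3 at 17.6 against 73.5. ADM had 2 counts in the group. HIF1A, at 117 against 128, and PFKL, at 30.4 against 32.3, were among those near the level of the other barcodes. Of one of its clusters 26.6% and of the other 12.8% came from well A11, in which the member sum was 1481 CPM, one of the lowest of the 48 wells.

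**Figure D2:**
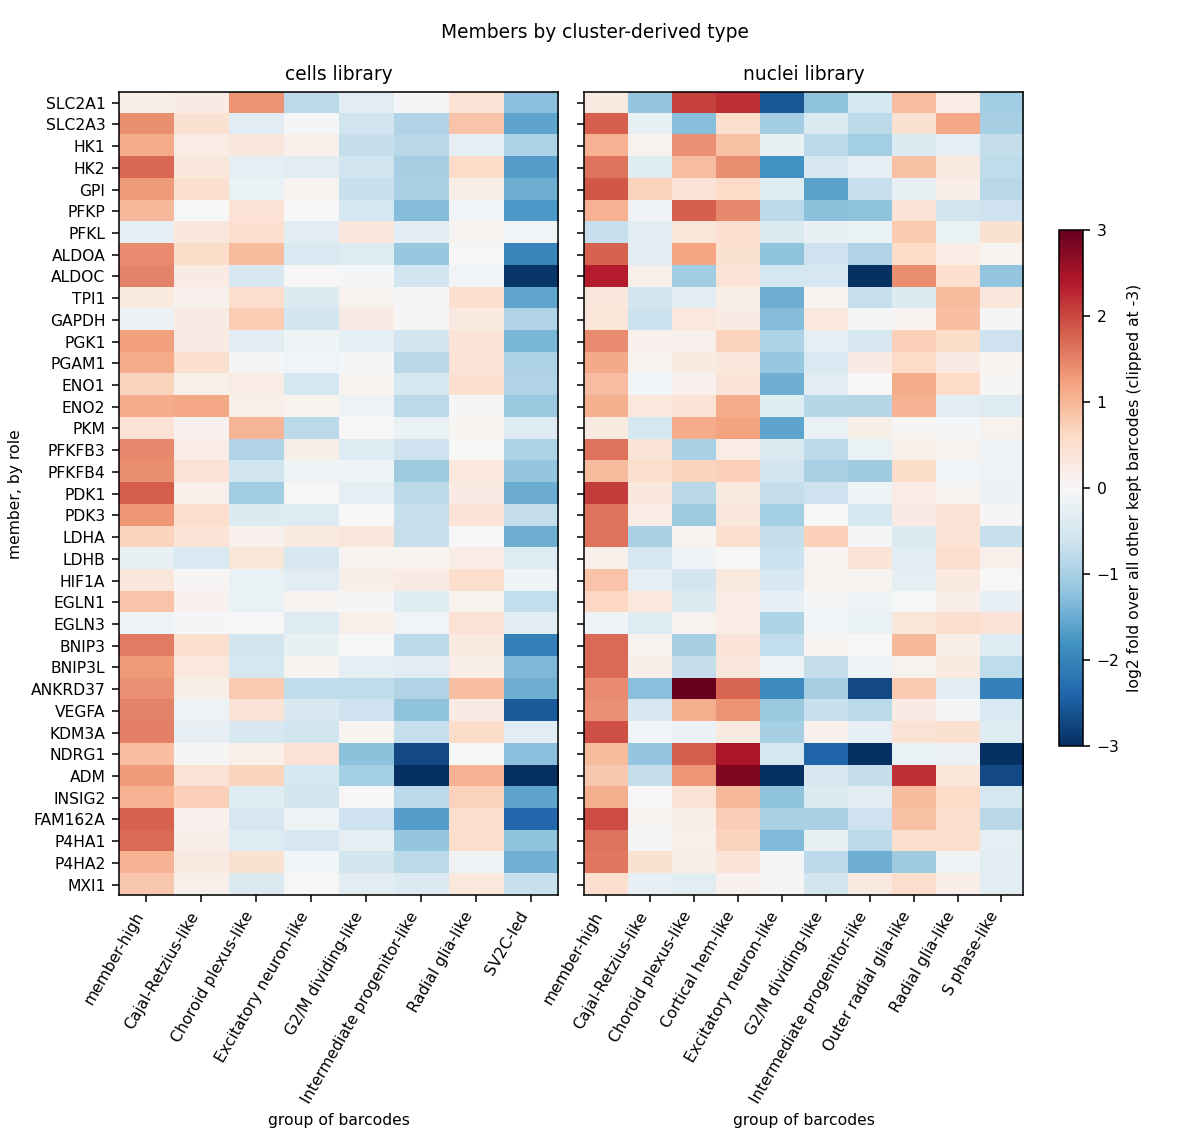
Log2 fold of each member (rows, by role) in each named group of barcodes (columns) over all other kept barcodes, red for higher and blue for lower, with the lowest values drawn in the darkest blue, for cells (left) and nuclei (right). The member-high column is red for most members in both libraries, the column led by SV2C is blue, and SLC2A1 is red in choroid plexus-like barcodes (2.53-fold in cells and 4.12-fold in nuclei). ADM in nuclei rests on 96 counts.

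Barcodes like choroid plexus, the epithelium that makes cerebrospinal fluid, had high levels of a few members. In cells these were 3102 barcodes, of which a cluster of 1453 also carried cortical hem markers. SLC2A1 was at 93.0 CPM (89.0 to 97.0) against 36.8 there, and PKM at 197 against 97.5. These were the 2 members of 37 at least 2-fold higher, a share below the 9.09% of all genes. ALDOA was 1.92-fold higher, and PDK1, at 0.487 of the other barcodes, was the 1 member at 0.5 or less, where 4.74% of genes were. Under the stricter minimum, SLC2A1 was 2.70-fold and PKM 2.16-fold higher in 1564 cells. In nuclei (359 barcodes, led by genes of motile cilia), 8 members were at least 2-fold higher, against 12.1% of genes. ANKRD37 was at 30.7 against 3.86, SLC2A1 at 273 against 66.3, NDRG1 at 57.4 against 16.3 and PFKP at 196 against 56.4, followed by HK1, ALDOA, PKM and VEGFA. SLC2A3, ALDOC and PDK3 were at 0.5 or less, 3 of 36 members where 24.5% of genes were. In cortical hem-like nuclei (940 barcodes, which also carried choroid plexus markers), 8 members passed, against 6.67% of genes. NDRG1 was at 69.8 against 12.9, SLC2A1 at 259 against 57.0 and VEGFA at 294 against 115 there, with ANKRD37, PFKP, HK2, PKM and ENO2 as the others. SLC2A1 and PKM were at least 2-fold higher in all 3 of these groups.

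Excitatory neuron-like nuclei (3210 barcodes) had low levels of a part of the members. There, 14 of 36 members were at 0.5 of the other level or less, against 19.4% of genes, and 0 were 2-fold higher, against 6.91%. The 14 included ANKRD37, VEGFA, INSIG2 and P4HA1 of the hypoxia response. Among the enzymes outside this count were HK1 (0.853), ENO2 (0.783) and GPI (0.772), beside a median of 0.826 for all genes. SLC2A1 stood at 15.8 CPM (13.9 to 17.9) against 93.6, HK2 at 21.4 against 75.2, PKM at 38.9 against 116 and ENO1 at 28.8 against 79.3. Excitatory neuron-like cells (2351 barcodes) differed less. Here 0 of 37 members were at 0.5 or less, against 10.3% of genes, and the lowest were PKM at 0.568 and SLC2A1 at 0.584. Intermediate progenitor-like cells (569 barcodes) had 8 of 37 members at 0.5 or less, a share near the 19.2% of all genes, among them NDRG1 at 3.54 against 23.1, FAM162A at 18.5 against 58.7 and VEGFA at 72.9 against 169. In nuclei of this name (585 barcodes) 7 of 36 were, beside 18.5% of genes, with NDRG1 at 3 counts, FAM162A at 0.647 of the other barcodes and VEGFA at 0.570. Nuclei with markers of S phase had 5 of 36 members at 0.5 or less, a share near the 13.4% of all genes, with NDRG1 at 2.28 against 20.6. Radial glia-like barcodes had SLC2A3 at 84.6 against 46.5 CPM in cells and 88.2 against 39.2 in nuclei (2.25-fold), and HK2 was 1.49-fold higher in cells. ADM, at 6.38 against 3.10 from 92 counts, was the 1 of 37 members past 2-fold in these cells, against 1.09% of genes, and SLC2A3 the 1 of 36 in nuclei, against 4.69%. The 3 clusters of these nuclei differed. The one of 1095 barcodes had 9 of 36 members past 2-fold, against 10.2% of genes. Those of 1416 and 1033 barcodes had 0 and 3, against 2.77% and 5.76%. In the 1033 nuclei named under the stricter minimum, SLC2A3 was at 71.2 against 45.3 (1.57-fold). Cajal-Retzius-like cells (200 barcodes) had ENO2, the neuronal enolase, at 120 against 54.1, the 1 member of 37 past 2-fold, where 8.41% of genes passed. In 883 nuclei of this name it was at 54.2 against 43.3 (1.25-fold).

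Pairs of related genes were compared as the share of the first gene in the counts of both, so that gene length and depth cancel between groups. Shares in the member-high cluster come from the levels that chose it, so they describe the cluster and test nothing. LDHA made up 14% (13.4 to 14.6) of lactate dehydrogenase counts in all kept cells and 22.8% (19.4 to 26.4) in the member-high cluster, and in nuclei 20.8% (19.5 to 22.2) and 40.9% (33.1 to 49.1). Excitatory neuron-like cells, at 20.5% (18.6 to 22.6), and Cajal-Retzius-like cells, at 22.6% (15.9 to 30.6), did not differ from the cluster beyond counting error. SLC2A1 made up 47.3% of the transporter pair in all cells, 29.6% (27.0 to 32.2) in the cluster and 69.2% (67.6 to 70.9) in choroid plexus-like cells. In nuclei these shares were 61.9%, 37.6% (33.5 to 41.8) and 93.2% (91.5 to 94.6). The order of the 3 groups was the same in both libraries. PFKP made up 72.1% of the PFKP and PFKL counts in cells and 85.2% in the cluster, and 65.0% and 85.6% in nuclei. EGLN1 rather than EGLN3 gave 53.7% and 68.9% in cells and 61% and 72.0% (67.2 to 76.4) in nuclei. In nuclei, excitatory neuron-like (70.0%, 67.7 to 72.2) and Cajal-Retzius-like barcodes (70.8%, 67.3 to 74.2) did not differ from this cluster value beyond counting error. For PFKP, choroid plexus-like nuclei, at 82.0% (79.2 to 84.5), overlapped the cluster (81.3 to 89.2).

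**Figure D3:**
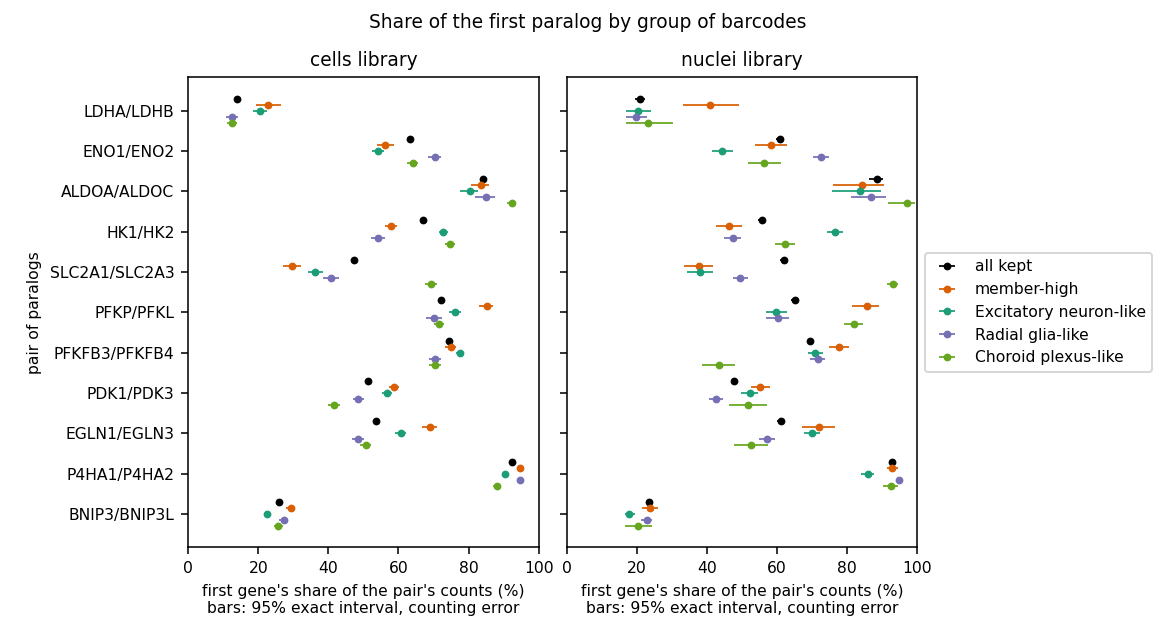
Share of the first gene in the counts of each pair of related members (horizontal axis, %), for all kept barcodes and 4 groups (colours), with 95% exact intervals as bars, in cells (left) and nuclei (right). SLC2A1 has its highest share in choroid plexus-like barcodes (69.2% and 93.2%), and LDHA its highest, of the groups drawn, in the member-high cluster (22.8% and 40.9%).

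Neuron-like and radial glia-like barcodes differed in other pairs. HK1, the constitutive hexokinase, made up 72.8% (71.5 to 74.1) of hexokinase counts in excitatory neuron-like cells and 54.2% (52.3 to 56.1) in radial glia-like cells, and 76.6% and 47.4% in nuclei. ENO1 made up 54.2% of the ENO1 and ENO2 counts in excitatory neuron-like cells and 70.3% in radial glia-like cells, and 44.3% and 72.5% in nuclei. Within each library the intervals of the 2 types did not overlap for either pair. The other pairs varied to different degrees. Over the 4 groups of cells, EGLN1 ran from 48.4% to 68.9% of its pair and PDK1 from 41.5% to 58.7%, while P4HA1 stayed between 88.0% and 94.8% of its pair and BNIP3 between 22.6% and 29.3%. Of the 11 pairs, 4 in cells and 5 in nuclei differed by at least 10 percentage points between the member-high cluster and the other barcodes. With a Leiden resolution of 0.5 these counts were 1 and 2, and with cells of more than 700 transcripts the count in cells was 2. No share over other pairs of genes was taken beside these counts, and the cluster was chosen by the members' levels.

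Cells were next set beside nuclei, as the ratio of CPM. The libraries differed in treatments, days, depth and preparation, which cannot be told apart from the difference between cytoplasm and nucleus. GAPDH was at 74.1 CPM in cells (72.7 to 75.4) and at 15.5 in nuclei (14.6 to 16.5), a ratio of 4.77. ALDOC was at 7.34 and 1.69 (ratio 4.34), ALDOA at 38.8 and 12.9 (3.01), ADM at 3.40 and 1.33 (2.56) and TPI1 at 43.0 and 17.6 (2.44). These were the 5 members at least 2-fold higher in cells, against 28.5% of 25605 genes, and LDHB was next at 1.99. No member was at least 2-fold higher in nuclei, against 0.465% of genes. SLC2A1, at 44.9 in cells and 76.4 in nuclei (0.587), and INSIG2, at 42.0 and 57.4 (0.731), had the lowest ratios. The median ratio was 1.25 for the members and 1.37 for all genes, and PGK1 (1.15), HIF1A (1.16) and VEGFA (1.26) lay near it. By sub-library, GAPDH in cells varied from 69.3 to 80.0 CPM. In nuclei the member sum was 3509 CPM in barcodes of 1000 to 1500 transcripts and 2181 in those of 10000 to 50000, while in cells it varied between 2833 and 3340 over depth classes.

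The members were then followed over the first-round wells, 48 in cells and 12 in nuclei. A first-round well receives a single sample, but which sample went to which well is not given here, so the wells are samples of unknown condition. In the pooled level of a well, more cells with a transcript and more transcripts per cell cannot be told apart. The summed level of the members ranged in cells from 1471 CPM in well C9 through a median of 2727 to 5671 in well B3, and in nuclei from 1840 in A10 through 2577 to 3665 in A4. The background barcodes of the same wells ranged from 1587 to 5215 CPM in cells and from 1810 to 2903 in nuclei. Wells ranked alike by kept and by background barcodes, with Spearman rho of 0.97 over 48 wells and 0.94 over 12, as a description of values that share wells and libraries. The share of the member-high cluster ranged from 0% in 5 wells through 3.76% to 21.5% in D7 in cells, and from 0.398% in A10 through 7.23% to 8.99% in A4 in nuclei. Its rho with the member sum was 0.61 in cells and 0.57 in nuclei. The rho of the member sum with the median depth of the well was 0.16 in cells and -0.62 in nuclei. The part of cell type, depth and free RNA in the spread over wells was not tested.

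**Figure D4:**
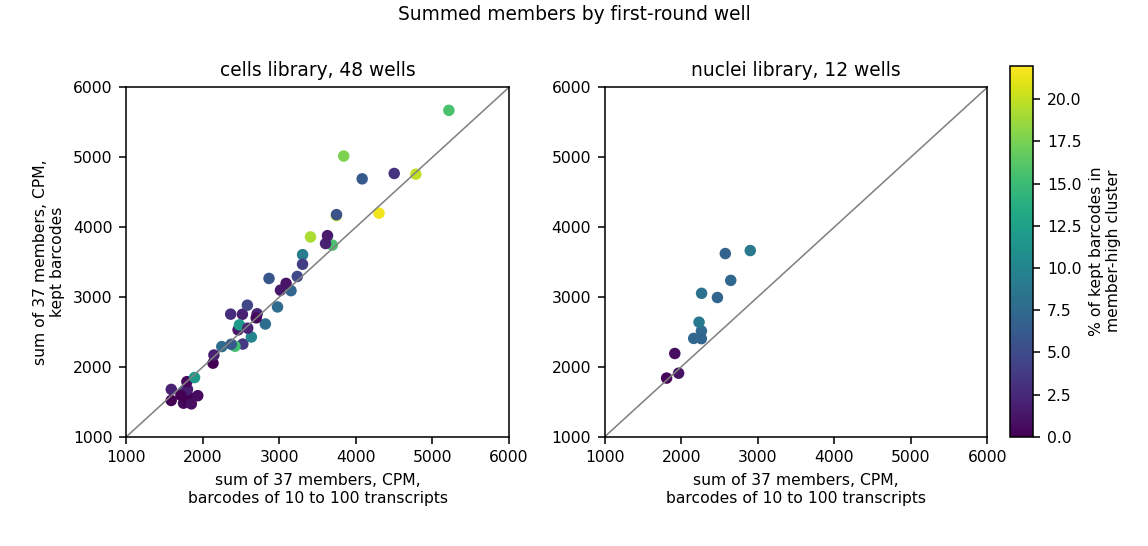
Summed level of the 37 members in kept barcodes (vertical axis, CPM) against that in background barcodes of 10 to 100 transcripts of the same well (horizontal axis), 1 point per first-round well, coloured by the share of kept barcodes in the member-high cluster, with a grey line where both are equal. Wells of cells extend from 1471 to 5671 along the line and wells of nuclei from 1840 to 3665.

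The spread over wells differed between members. It was taken as the 90th over the 10th percentile of wells for members with on average at least 40 counts per well. In cells, 30 of 32 members had a spread of at least 2, against 57.4% of 10620 genes, with a median of 4.10 beside 2.13 for all genes. VEGFA ranged from 5.53 CPM in A10 through a median of 133 to 559 in B3, a spread of 10.2. FAM162A ranged from 6.25 through 46.9 to 115 (spread 9.93), BNIP3 from 5.53 through 56.3 to 153 (7.29) and GPI from 39.4 through 129 to 710 (5.98). HIF1A, from 52.1 through 121 to 163 (1.74), and EGLN3, from 53.2 through 85.7 to 138 (1.78), had the lowest spreads. ALDOC, PGAM1, LDHA, ANKRD37 and ADM had too few counts per well. In nuclei, 19 of 34 members had a spread of at least 2, against 24.5% of 11836 genes, with a median of 2.10 beside 1.63. NDRG1 had the highest, from 4.26 in A8 through 17.0 to 54.5 in A6 (6.97), followed by GPI, from 62.6 in A8 through 129 to 381 in A1 (3.64). MXI1 (1.17), LDHB (1.33) and HIF1A (1.43) had the lowest. ALDOC, ANKRD37 and ADM had too few counts.

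The spread was also present within a type. Here lower minimums applied, of 100000 transcripts per well and on average 20 counts per well and gene. Among excitatory neuron-like cells of 35 wells, 24 of 26 members had a spread of at least 2, against 65.8% of genes, and the medians were 5.04 for members and 2.26 for all genes. PDK1 ranged there from 13.1 through 79.3 to 330 CPM. The lowest well was at 0 CPM for several members, among them VEGFA, BNIP3 and FAM162A. The part of low counts and free RNA in the spread within types was not tested. Among radial glia-like cells of 22 wells, 27 of 30 members passed, against 55.4%, and VEGFA ranged from 60.1 through 154 to 636. In nuclei, 14 of 27 members passed within excitatory neuron-like barcodes, against 34.1%, and 21 of 29 within radial glia-like barcodes, against 40%. HIF1A stayed below 2 in all 4 of these groups (1.71, 1.56, 1.54 and 1.65). Without the member-high cluster, 30 of 32 members in cells had a spread of at least 2, against 57.7% of genes, and 21 of 34 in nuclei, against 24.5%.

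Across wells the levels of most members were positively correlated. The median Spearman rho over 496 member pairs in cells was 0.53, beside 0.02 over pairs of all genes with the same minimum, and over 561 pairs in nuclei it was 0.37 beside 0.01. Wells share depth, free RNA and cell type makeup, and these values are a description. HK2 and P4HA1 (0.92) and PFKFB3 and PFKFB4 (0.91) were closest in cells, and PFKP and PFKFB3 (0.97) in nuclei. By the median over its pairs, BNIP3 had the highest value in cells (0.75), and PDK1 was at 0.71 in cells and 0.70 in nuclei. LDHB stood apart, with medians of -0.01 and -0.42, and its rho with PFKP in nuclei was -0.83. HIF1A had medians of 0.01 and 0.04, and PFKL of 0.13 and -0.01.

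**Figure D5:**
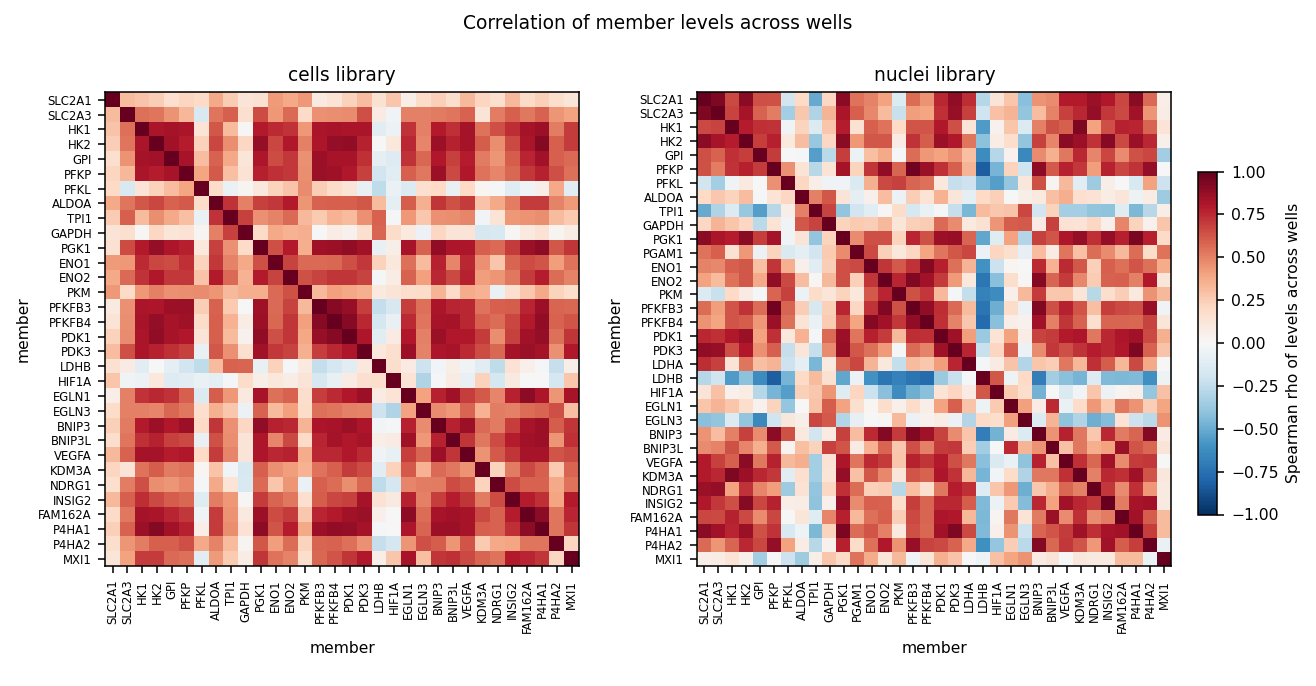
Spearman rho of member levels across first-round wells (colour, from -1 in blue to 1 in red), for the 32 members of cells (left) and the 34 of nuclei (right) with enough counts, ordered by role. Rows of LDHB and HIF1A in cells are mostly pale (median rho -0.01 and 0.01), apart from LDHB with TPI1 (0.59) and GAPDH (0.58), and those of PDK1, BNIP3 and P4HA1 are red against most members (0.71, 0.75 and 0.73 in cells).

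Between single barcodes the relation was weak at this depth. After thinning each barcode to 1000 transcripts, the median rho over 666 member pairs was 0.013 in 20178 cells and 0.025 in 14228 nuclei. Over the members with enough counts per well it was 0.019 and 0.028, beside 0.000 for all genes under the same minimum. The highest pair was PDK1 with P4HA1 in cells (0.101) and SLC2A1 with HK2 in nuclei (0.145). Most counts at this depth are 0, which limits rho. Without thinning the medians were 0.2966 and 0.1212, but barcodes then differ in depth, and no value over all genes was taken beside them.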

How the data were processed

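Single cells and nuclei of cerebral organoids were profiled by split-seq. The authors divided the reads among 8 and 2 sub-libraries and processed them with the Parse Biosciences pipeline spipe on GRCh38, and the files they deposited hold raw counts for each barcode and gene, without a selection of cells. The libraries held 254967545 and 82339738 transcripts. The 37 genes and all lists were chosen with earlier results of these data known. All members are described by role, with levels or folds for those past 2-fold.

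Kept barcodes were scaled to 10000 transcripts, log-transformed and clustered on 2000 variable genes without members, with 30 principal components, 15 neighbours and Leiden resolution 1 (scanpy 1.11.5, igraph 0.11.9). A cluster was named when at least 3 markers of a type were at 1.5 times the other barcodes and the list's median was at least 1.75. The lowest median of a named cluster was 1.79. A small constant was added to both levels first. A marker of the type also had to be among the cluster's 100 leading genes (found in 25% of its barcodes or more). A cluster was left unnamed where one of its 10 leading genes went against the name. These limits, the veto and the SV2C-led group were chosen after the clusters' marker values had been seen. Levels are pooled counts per 1000000 (CPM), for genes with at least 100 counts. Intervals are exact Poisson or Clopper-Pearson (scipy 1.17.1). Scrublet marked 0 barcodes in either library and was taken not to have worked, so doublets were kept, and an alternative left out the 1009 cells and 427 nuclei of highest score. No test was run, with 1 sample name per library and wells of unknown sample. The pooled folds and the thinning were tested on simulated counts. The clustering, the naming, the pair shares, the spread over wells and the correlations were not. Alternatives were other barcode limits, scalings, count minimums, clusterings, depths and sets of wells, and those without barcodes over 50000 transcripts, without single wells, with deep wells alone, without the member-high cluster or with other naming limits were chosen after seeing the data.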

Additional observations from a re-analysis of the deposited data

How the results depend on the processing

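The members in the member-high cluster depended on the clustering. Their number was 23 in each library, and it was 0 in cells and 5 in nuclei at Leiden resolution 0.5, and 9 in nuclei of more than 5000 transcripts. These nuclei clusters shared 0 barcodes with the one described. At more than 700 transcripts 18 members passed in cells, against 5.94% of genes, but that cluster shared 159 barcodes with the one described. Other alternatives gave 22 to 25 in cells, against 4.45% to 7.16% of genes, and 18 to 26 in nuclei, against 7.70% to 14.7%. The pairs of related genes that differed by 10 percentage points were 4 in cells and 5 in nuclei. They were 2 in cells at more than 700 transcripts, and 1 in cells and 2 in nuclei at Leiden resolution 0.5. The median correlation between members in single barcodes was 0.0134 in cells and 0.0249 in nuclei. Thinned to 2000 transcripts it was 0.0276 and 0.0327, without thinning 0.2966 and 0.1212, and as Pearson's r in nuclei 0.0272. The cause of these changes was not tested. Members at least 2-fold higher in cells than in nuclei numbered 5 to 6 under all alternatives run. The share of all genes, 28.5% in the main setting, was not taken under these alternatives. Members with a spread over wells of at least 2 numbered 28 to 32 of 30 to 34 in cells, against 40.6% to 57.7% of genes, and 16 to 21 of 29 to 34 in nuclei, against 16.2% to 24.5%. As the highest over the lowest well, 32 of 32 and 27 of 34 passed, but so did 97.0% and 51.3% of genes. With a median marker fold of at least 2, 2 clusters of cells and 2 of nuclei lost their name, among them the only radial glia-like cluster of cells, so that the comparisons of that type in cells could not be made. HK1 then made up 52.7% of hexokinase counts in radial glia-like nuclei. Without the gene held against a name, 1 of the SV2C-led clusters was named for S phase. The member-high cluster had no name under any of these, but none varied the condition that a marker be among the 100 leading genes. In nuclei its excitatory neuron markers had a median fold of 1.80, and which condition withheld that name was not tested. No paired test was run, because the samples of the wells are unknown and the cluster was chosen by the members' levels. The values of the cluster beside other barcodes of the same well were therefore given without a test. Depth limits what single barcodes show, since a median cell held 2615 transcripts.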
